A study of Capra hircus with 72 samples.

Results

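The genes of purine and adenosine signalling examined here were 3 adenosine receptors (ADORA1, ADORA2A, ADORA2B), 4 ATP-gated P2X channels (P2RX2, P2RX4, P2RX5, P2RX7), the ADP receptor P2RY1 and 2 ectonucleotidases (ENTPD1 and NT5E). They were chosen by name, as the rows of the deposited gene table whose gene name equals one of these 10 symbols. Such a row was found for 9 of the 10, out of 21343 genes in the table. P2RX5 had no row under its symbol and is not analysed here. The RNA came from brain tissue of female goats (Capra hircus) in 4 regions: a cortical one, the medial prefrontal area (mPFC), and 3 of the brainstem, which are the solitary tract nucleus (NTS), the retrotrapezoid nucleus (RTN) and the ventral respiratory column (VRC). One group breathed room air for 14 days, a mild chronic hypercapnia group breathed 6% CO2 for 14 days, and a moderate group breathed 6% CO2 for 7 days and then 8% for 7 days. Each region and condition had 6 libraries, which makes 72 libraries in 12 groups, and the series description gives 6 animals per condition. No genotype, age or breed is given in the labels used here.

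ATP released from cells acts on P2X channels, which open to cations when ATP binds, and on P2Y receptors such as P2RY1, which signals through a G protein to release calcium from stores. Outside the cell, ENTPD1 (CD39) removes phosphates from ATP and ADP, and NT5E (CD73) turns the resulting AMP into adenosine, which then acts on the ADORA receptors. In the brainstem, ATP and adenosine are known as signals in the control of breathing: ATP release at the ventral surface of the medulla accompanies raised CO2, and adenosine acting on its receptors depresses breathing.

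Levels between genes were compared on the RPKM scale as deposited, which divides reads by gene model length and by library size. In room air 4 genes lay far above the others in every region: ADORA1, ADORA2B, P2RX4 and NT5E. In mPFC, P2RX4 came first at 32.2 ± 3.34 RPKM (SD, n = 6), with its lowest library at 28.1 RPKM and the highest library of the next gene, NT5E, at 26.6 RPKM. There ADORA2B had 17.8 ± 2.24 RPKM and ADORA1 17.5 ± 1.57 RPKM, which did not differ beyond their spread. In VRC the order began with ADORA1 at 32.4 ± 3.59 RPKM, followed by ADORA2B at 28.8 ± 4.19, NT5E at 28.4 ± 5.33 and P2RX4 at 28.0 ± 2.97 RPKM. The libraries of these 4 genes overlapped in VRC, as they did in NTS and RTN, so their order there was not resolved.

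The other 5 genes were low. P2RX7 ran from 2.86 ± 0.384 RPKM in mPFC to 7.79 ± 2.48 RPKM in VRC. P2RY1 lay between 2.78 ± 1.08 RPKM in mPFC and 5.01 ± 1.56 RPKM in NTS. ENTPD1 lay between 1.98 ± 0.845 RPKM in VRC and 2.53 ± 0.473 RPKM in mPFC. ADORA2A stayed at 0.262 to 0.422 RPKM in the group means of all 4 regions, and its counts over the 72 libraries ran from 1 to 60. P2RX2 had 1.12 ± 0.68 RPKM in NTS and 0.0195 ± 0.0303 RPKM in RTN, the widest range of the set. The gene models behind these values are 1038 to 2233 bases long, and 7 of the 9 lengths are multiples of 3, so some models may hold the coding sequence only. Order between genes depends on those models, while the comparisons of 1 gene between groups do not.

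**Figure D1:**
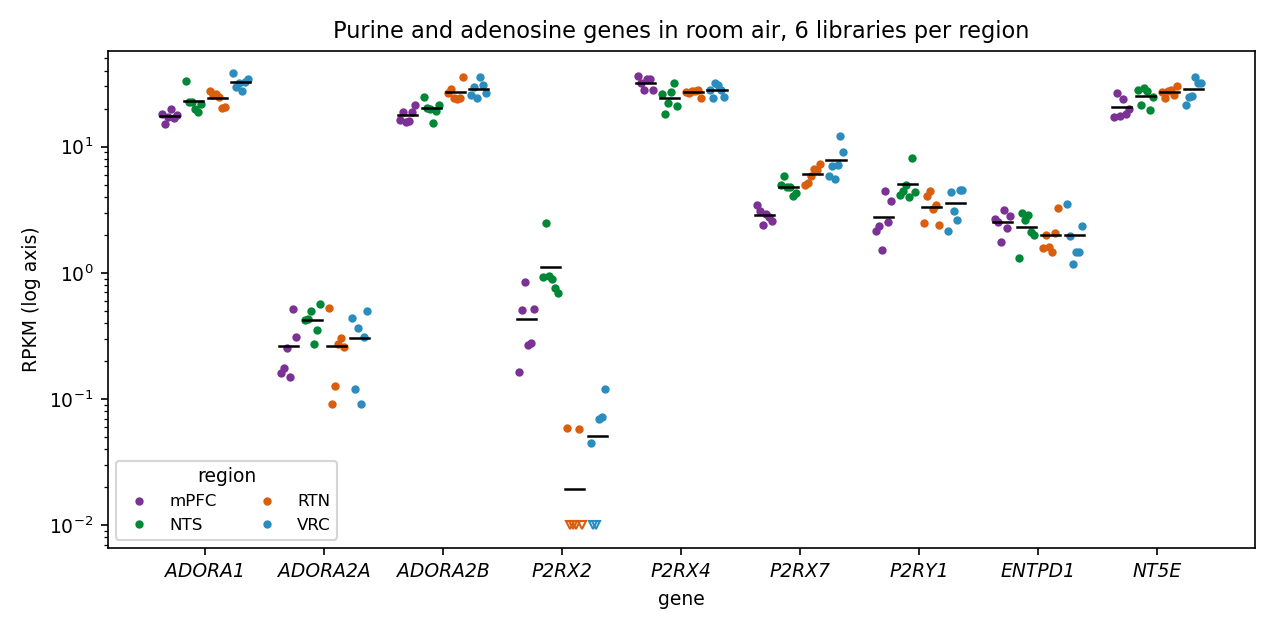
Deposited RPKM (log axis) of the 9 genes in room air, with 1 point per library, 6 libraries per region and a black bar at each mean. Open triangles at the foot of the axis are libraries with 0 P2RX2 counts (4 of RTN and 2 of VRC), drawn at 0.01 because a log axis has no 0. ADORA1, ADORA2B, P2RX4 and NT5E lie between 15.1 and 38.0 RPKM, and P2RX2 drops from a mean of 1.12 RPKM in NTS to 0.0195 in RTN and 0.0512 in VRC.

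The summed counts of a library lay between 12.8 M and 31.9 M. Cortex and brainstem were separated by SLC17A7, a glutamate transporter of cortical neurons, which averaged 761 CPM (counts scaled to library size) in mPFC in room air, against 6.31 CPM in NTS, 10.5 CPM in RTN and 56.6 CPM in VRC. The summed CPM of 9 measured myelin markers also differed by region, with room air medians of 3755 in mPFC, 15479 in NTS, 24855 in RTN and 42015 in VRC. That summed level is given again beside the genes it moves with. In such tissue samples, fewer cells of a type and less RNA per cell cannot be told apart.

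Between regions, the tests below used CPM scaled by TMM factors, with the counts of the 24 libraries of 1 condition in 1 edgeR quasi-likelihood fit and p-values adjusted by Benjamini-Hochberg over all genes tested. With 6 animals and 24 libraries per condition, the 4 regions share animals. The labels do not say which libraries come from 1 animal, so libraries were treated as separate samples and the p-values between regions take no account of that sharing. With the replicate number as a block, the count of the 9 genes called changed by at most 1 in any region comparison. All 9 genes with a row were in the room air fit. P2RX2 passed the filter on low counts only through its NTS and mPFC libraries, so it is described on its own and the counts here are of the other 8 genes. In room air 4 of 8 genes passed an adjusted p of 0.05 in NTS against mPFC, where 48.3% of all genes did. The count was also 4 for RTN against mPFC (54.8% of all genes), for VRC against mPFC (60.3%) and for VRC against NTS (33%). It was 2 for RTN against NTS (21.6%) and 1 for RTN against VRC (14.7%). Those counts lie on both sides of the share of all genes called. With P2RX2 each of them but the last is 1 higher, which is not read as a result because of how that gene passed the filter. In VRC against mPFC the median log2 fold change of the 8 genes was 0.53, against -0.01 over all genes. That was the highest of the room air medians, which were 0.47 in RTN and 0.33 in NTS against mPFC and -0.06 in RTN against VRC. For VRC against mPFC it was 0.41 in mild and 0.38 in moderate hypercapnia.

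ADORA1 encodes the A1 receptor, which couples to inhibitory G proteins. In room air its CPM was 14.9, 18.1 and 19.5 in mPFC (lowest, median, highest library), 19.4, 22.0 and 32.8 in NTS, 22.2, 27.0 and 29.0 in RTN, and 29.8, 35.2 and 41.3 in VRC. All 6 VRC libraries lay above all 6 libraries of mPFC and of RTN, while NTS and RTN overlapped. ADORA1 was higher in VRC than in mPFC by a log2 fold change of 1.00 (SE 0.125, edgeR adjusted p = 2.38e-07), and higher in RTN than in mPFC by 0.59 (SE 0.125, adjusted p = 0.00029). NTS exceeded mPFC by 0.39 (SE 0.124, adjusted p = 0.013) and VRC exceeded NTS by 0.62 (SE 0.124, adjusted p = 0.000505). RTN lay below VRC by a log2 fold change of -0.41 (SE 0.123, adjusted p = 0.0267). Leaving out RTN library 5, RTN library 6 or VRC library 1 ended that last call, with an adjusted p of 0.070 in each case. VRC against mPFC, RTN against mPFC and VRC against NTS were also called in both hypercapnia conditions, where VRC exceeded mPFC by 0.90 to 1.02. NTS against mPFC was called in room air only, with estimates of -0.01 to 0.39 over the 3 conditions. RTN against VRC was also called in room air only. RTN against NTS was not called in room air but was in mild (0.51) and moderate (0.75) hypercapnia. The order of the ADORA1 means over the regions is the order of the summed myelin markers given above, and the part of myelin RNA in these differences was not tested.

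ADORA2B, the low-affinity adenosine receptor that raises cyclic AMP, separated the regions into a lower and a higher pair. Its room air CPM was 16.6, 18.8 and 23.3 in mPFC and 16.5, 21.5 and 26.3 in NTS, against 26.8, 29.2 and 41.2 in RTN and 28.2, 32.3 and 40.8 in VRC. Every RTN and VRC library lay above every mPFC and NTS library. RTN exceeded mPFC by a log2 fold change of 0.74 (SE 0.123, adjusted p = 1.64e-05) and NTS by 0.58 (SE 0.122, adjusted p = 0.00126). VRC exceeded mPFC by 0.80 (SE 0.123, adjusted p = 4.91e-06) and NTS by 0.64 (SE 0.122, adjusted p = 0.00031). All 4 of these comparisons were called in room air, in mild and in moderate hypercapnia. Within the pairs there was no call: NTS against mPFC gave 0.16 (95% interval -0.09 to 0.41) and RTN against VRC gave -0.06 (-0.31 to 0.19). The ADORA2B means, like those of ADORA1, rise over the regions in the order of the summed myelin markers, whose part was not tested. The summed astrocyte markers had room air medians of 5838 CPM in mPFC, 20304 in NTS, 17549 in RTN and 9592 in VRC. Most of that sum is GFAP, with means of 3366, 16152, 14517 and 6975 CPM in the same order. Single markers differed in their order. SLC1A2 and SLC1A3 were highest in mPFC, at 118 and 1525 CPM, while all other listed astrocyte markers were lowest there. S100B was highest in VRC, at 1502 CPM.

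ADORA2A, an adenosine receptor known for its high level in the striatum, had room air means of 0.569 to 0.91 CPM over the 4 regions. None of its 18 region comparisons was called, and its widest room air interval, RTN against mPFC, ran from -0.71 to 1.04. The depth behind it, 1 to 60 counts per library, limits what could be detected.

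P2RX7, the channel known to open only at high ATP, had the highest log2 fold change over mPFC in both RTN and VRC in room air, while in NTS those of P2RX2 and P2RY1 were higher. Its room air CPM was 4.48, 5.01 and 6.20 in mPFC, 7.41, 8.45 and 10.4 in NTS, 9.41, 11.9 and 14.0 in RTN, and 10.8, 13.4 and 23.4 in VRC. No brainstem library reached down to the mPFC range, and VRC also lay wholly above NTS. The log2 fold change over mPFC was 0.73 in NTS (SE 0.16, adjusted p = 0.000555), 1.22 in RTN (SE 0.161, adjusted p = 6.59e-07) and 1.55 in VRC (SE 0.161, adjusted p = 1.17e-08). VRC exceeded NTS by 0.82 (SE 0.157, adjusted p = 0.000291) and RTN exceeded NTS by 0.49 (SE 0.157, adjusted p = 0.0265). Leaving out 1 of 5 libraries (NTS 5 or 6, or RTN 4, 5 or 6) moved that last adjusted p to between 0.0505 and 0.0658. VRC exceeded mPFC by 1.37 to 1.78 over the 3 conditions. NTS against mPFC was called in room air only, with estimates of 0.35 to 0.73 over the 3 conditions. The means again rise in the order of the summed myelin markers, whose part was not tested.

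P2RX4, a channel found in many cell types and known from microglia, has P2RX7 as its neighbour on chromosome 17 in the RefSeq goat table. Its room air CPM was 38.9, 44.1 and 49.5 in mPFC, 24.9, 32.5 and 44.4 in NTS, 35.5, 39.3 and 42.1 in RTN, and 35.5, 41.6 and 47.1 in VRC. All 4 regions overlapped, with NTS reaching lowest. NTS lay below mPFC by a log2 fold change of -0.41 (SE 0.112, adjusted p = 0.0044), and that difference was called in all 3 conditions, at -0.41 to -0.24. VRC exceeded NTS by 0.32 (SE 0.112, adjusted p = 0.0317), a call that ended when 1 of 6 libraries (NTS 2, 3 or 6, or VRC 1, 3 or 4) was left out, with an adjusted p of up to 0.0883. Neither RTN nor VRC was called against mPFC in any condition. P2RX4 and P2RX7 ran in different directions from mPFC to NTS.

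P2RX2 carried the sharpest regional contrast. In room air its counts were 20, 103, 21, 30, 27 and 21 in the 6 NTS libraries and 4, 15, 24, 7, 6 and 13 in mPFC. In RTN they were 2, 0, 0, 0, 2 and 0, and in VRC 1, 0, 0, 2, 2 and 4. NTS and mPFC overlapped in CPM, and every RTN and VRC library lay below every NTS and mPFC library. Over the 3 conditions the gene had 550 counts in the 18 NTS libraries, 203 in mPFC, 34 in VRC and 11 in RTN, with 0 counts in 11 of 18 RTN and 5 of 18 VRC libraries. From summed room air counts, NTS was 49.6 times RTN (95% exact interval 19.1 to 184, counting error only) and 20.9 times VRC (10.8 to 46.4). The mPFC was 18.4 times RTN (6.89 to 69.6) and 7.78 times VRC (3.87 to 17.7). Library 2 gave 103 of the 222 room air counts of NTS, a spread between libraries that these intervals leave out. In mild and moderate hypercapnia NTS was 92.0 and 30.1 times RTN, and 17.6 and 9.47 times VRC. The model's p-values for these 4 differences are not given, because P2RX2 passed the count filter only through the groups where it is high. The fitted fold changes at such counts depend on the prior count and are not given either.

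The lead of NTS over mPFC in P2RX2 was smaller and less stable. It was 1.33 in log2 fold change in room air (SE 0.471). The second NTS library, with 3.53 CPM against 0.979 to 1.305 in the other 5, held much of that difference: without it the estimate was 0.92. Leaving out mPFC library 1 or 4 gave 1.17 and 1.22. From summed counts NTS was 2.69 times mPFC in room air, 2.91 times in mild and 2.28 times in moderate hypercapnia. The model's p-values for this pair are not given either, because P2RX2 passed the count filter partly through NTS, the higher group.

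P2RY1 was higher in NTS than in mPFC in all 3 conditions. Its room air CPM was 1.74, 2.62 and 4.69 in mPFC, 4.32, 4.77 and 9.05 in NTS, 2.79, 3.85 and 5.27 in RTN, and 2.53, 4.38 and 5.34 in VRC. Of the mPFC libraries only the highest, at 4.69 CPM, reached into the NTS range. The log2 fold change was 0.85 in room air (SE 0.252, adjusted p = 0.00727), and 0.85 to 1.51 over the conditions. RTN and VRC were called against mPFC in no condition.

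Of the ectonucleotidases, NT5E was higher in RTN and VRC than in cortex, and ENTPD1 was called nowhere. The room air CPM of NT5E was 28.5, 32.0 and 43.5 in mPFC, 33.6, 43.2 and 47.7 in NTS, 44.3, 48.3 and 53.9 in RTN, and 38.6, 51.0 and 63.1 in VRC. RTN lay wholly above mPFC, and VRC overlapped it. The means again follow the order of the summed myelin markers, whose part was not tested. RTN exceeded mPFC by 0.54 (SE 0.121, adjusted p = 0.000503) and VRC by 0.58 (SE 0.121, adjusted p = 0.000203). Both differences were called in room air and in neither hypercapnia condition, where RTN exceeded mPFC by as little as 0.14 and VRC by 0.22. The test of whether the CO2 response of NT5E differs between regions, described below, gave an edgeR adjusted p of 1 for both levels of hypercapnia. ENTPD1 had room air means from 3.20 ± 1.37 CPM in VRC to 3.80 ± 0.649 CPM in mPFC, with none of 18 region comparisons called.

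Without P2RX2, 13 of 48 pairings of a gene with a region pair were called in the same direction in all 3 conditions, and 23 were called at least once. The matching shares over all genes were not computed, so these counts are not read as a result particular to the 8 genes. In mild hypercapnia the genes called, of the same 8, numbered 2 in NTS against mPFC (43.3% of all genes), 3 in RTN against mPFC (52.8%), 3 in VRC against mPFC (59.3%), 4 in RTN against NTS (29.7%), 5 in VRC against NTS (45.6%) and 0 in RTN against VRC (11.9%). In moderate hypercapnia they numbered 2 (40.1%), 3 (49.7%), 3 (52.3%), 4 (30%), 3 (37.6%) and 0 (6.07%) in the same order. RTN against VRC had 0 members with an unadjusted p under 0.05 in mild and 1 in moderate hypercapnia. ADORA2B and P2RX7 were each called in all 3 conditions in 4 of the 6 region pairs.

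**Figure D2:**
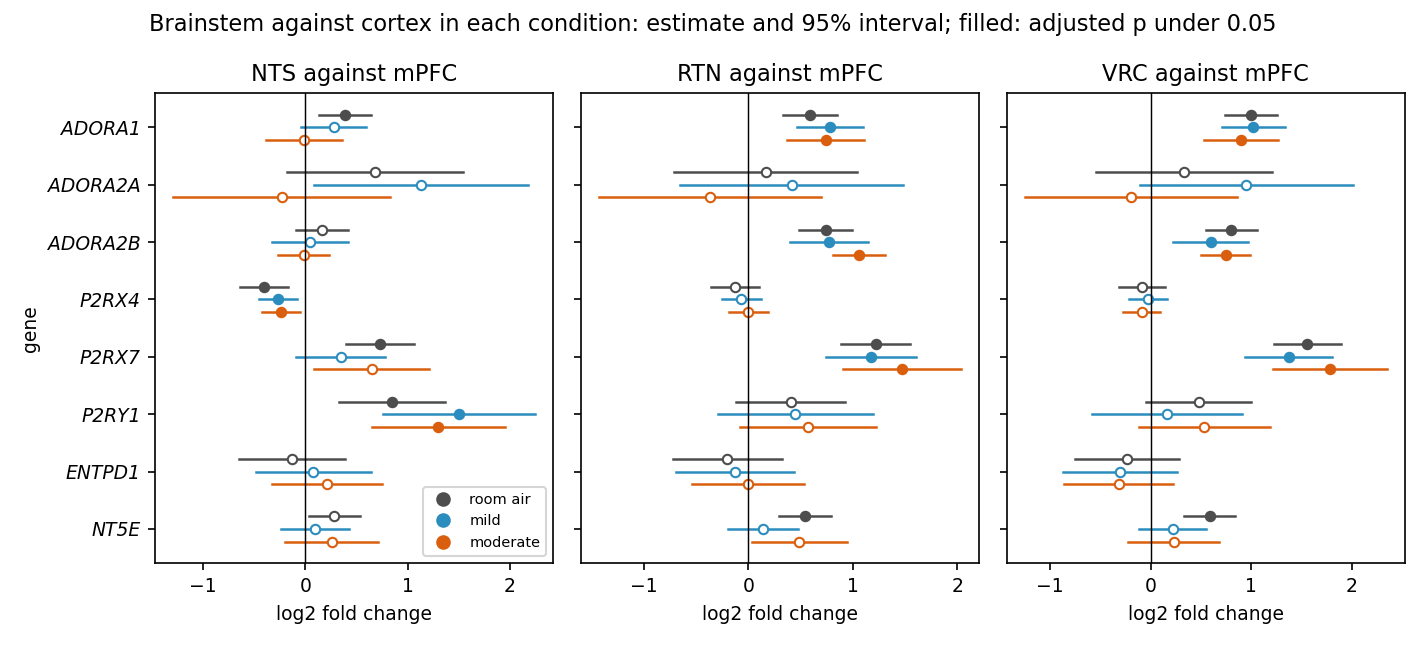
Log2 fold change of each brainstem region over mPFC for 8 genes, with 95% intervals, in room air, mild and moderate hypercapnia (6 against 6 libraries each). Filled points passed an adjusted p of 0.05. P2RX7 in VRC lies at 1.37 to 1.78 in the 3 conditions, P2RX4 lies below 0 in NTS each time, and ADORA2B is filled in RTN and VRC in every condition. P2RX2 is left out because its fitted values rest on libraries with 0 counts.

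The study's own question was how chronic hypercapnia changes expression in each region, against room air. Here the 18 libraries of a region were fitted together with the same edgeR test, and mild and moderate hypercapnia share the same room air libraries. In these 12 condition comparisons, moderate against mild included, none of the 9 genes was called, at 0% of all genes called in 11 comparisons and 0.00649% in moderate against room air in NTS. Of 102 tests of a gene, 3 (2.94%) had an unadjusted p under 0.05, all under moderate hypercapnia, and the lowest adjusted p was 0.33. No gene of the 9 had one in mPFC, where 3.45%, 2.1% and 4.71% of all genes did in mild and moderate against room air and in moderate against mild. Nor had any in VRC (6.23%, 5.67% and 15.5%). In NTS the shares of all genes were 4.66%, 13.4% and 4.02%, and in RTN 6.59%, 7.38% and 10.6%. DESeq2 and limma called none either. P2RX2 did not pass the count filter in RTN and VRC. There, 6 exact two-sided permutation tests of its CPM over 6 against 6 libraries gave p from 0.303 to 1, and 0.705 to 1 after adjustment, where the smallest p the design allows is 0.00216.

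**Figure D3:**
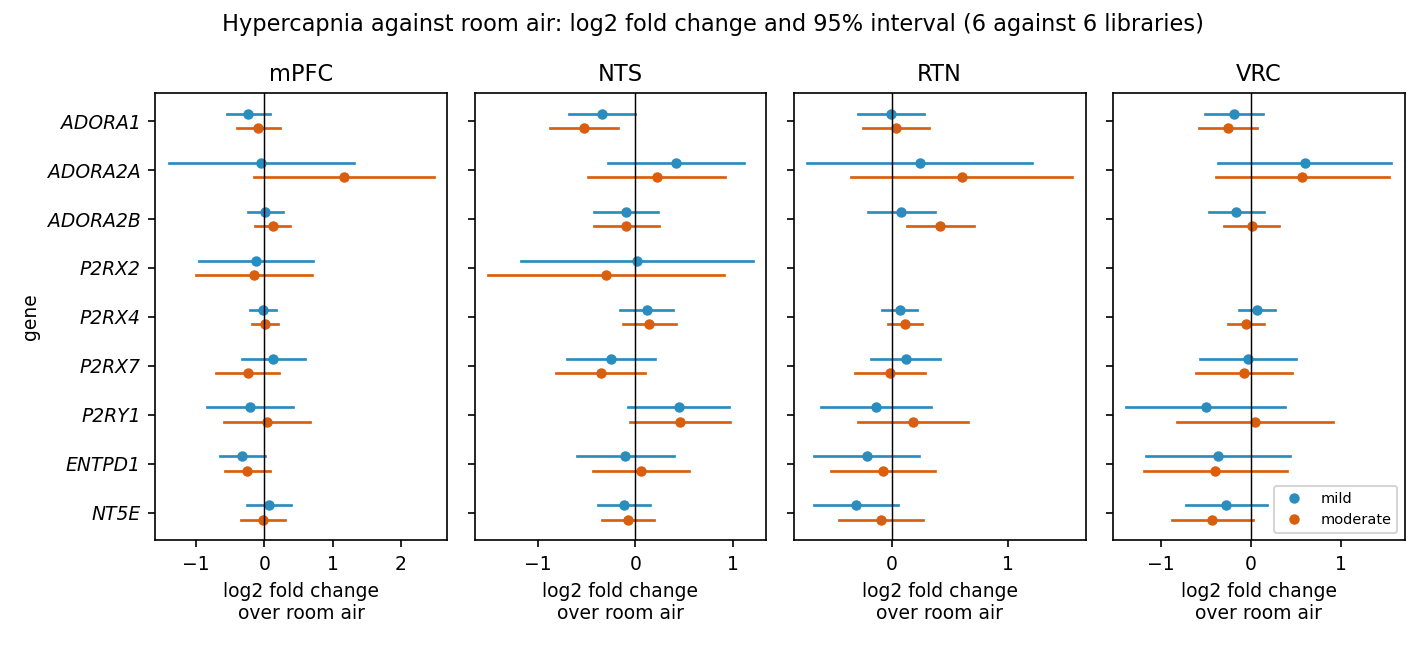
Log2 fold change over room air with 95% intervals for mild (blue) and moderate (orange) hypercapnia in each region, 6 against 6 libraries; horizontal scales differ between regions. None of the points passed an adjusted p of 0.05. Intervals that leave out 0 are those of ADORA1 in NTS (moderate, -0.53) and ADORA2B in RTN (moderate, 0.42); P2RX2 has no model estimate in RTN and VRC.

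The lowest of these p-values belonged to ADORA1 in NTS. In room air the 6 libraries had 32.8, 22.7, 22.4, 19.6, 19.4 and 21.5 CPM. In mild hypercapnia they had 16.2, 27.0, 16.6, 12.98, 16.9 and 19.6 CPM, and in moderate 18.2, 17.3, 16.2, 16.2, 12.8 and 15.8 CPM. Every moderate library lay below every room air library, while mild overlapped both. Groups without overlap were found for 0.435% of all genes in this comparison, and an unadjusted p under 0.05 for 13.4%. The mean was 23.1 ± 4.97 CPM in room air, 18.2 ± 4.78 in mild and 16.1 ± 1.84 in moderate hypercapnia, a log2 fold change of -0.53 for moderate (SE 0.165, edgeR adjusted p = 0.33). Leaving out each library in turn kept it between -0.57 and -0.38, at edgeR adjusted p of 0.13 to 0.68. ADORA1 lay below room air in 7 of 8 comparisons with hypercapnia, the exception being moderate in RTN at 0.04.

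In the same NTS libraries the myelin markers were lower in moderate hypercapnia. Their summed CPM ran from 7749 to 34683 (median 15479) in room air and from 3938 to 14850 (median 6902) in moderate hypercapnia, with 8 of 9 tested markers lower at a median log2 fold change of -0.89, and none of them passing the adjusted threshold. Of 8 tested neuron markers 7 were higher, at a median of 0.34. Room air library 1, which has the highest ADORA1 value, also has the highest myelin sum. With a myelin score as a covariate, an alternative chosen after seeing the data, the ADORA1 estimate was -0.19 (edgeR adjusted p = 0.998). That covariate acted on genes at large: those with an unadjusted p under 0.05 in this comparison numbered 2073 without it and 558 with it. Less ADORA1 RNA per cell and less myelinated tissue in these samples cannot be told apart.

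ADORA2B in RTN gave the other 2 unadjusted p-values under 0.05. Its 6 libraries had 29.8, 33.8, 28.3, 26.8, 28.6 and 41.2 CPM in room air, 37.3, 29.3, 27.2, 25.7, 44.0 and 34.5 in mild, and 41.6, 38.4, 36.4, 40.9, 55.4 and 42.0 in moderate hypercapnia. All but the highest room air library lay below all moderate libraries, and the mild group spanned both. The mean was 31.4 ± 5.35 CPM in room air, 33.0 ± 6.96 in mild and 42.5 ± 6.68 in moderate. Moderate exceeded room air by a log2 fold change of 0.42 (SE 0.139, edgeR adjusted p = 0.56) and mild by 0.34 (SE 0.139, adjusted p = 0.39), where 7.38% and 10.6% of all genes had an unadjusted p under 0.05. With the myelin score as a covariate the estimates were 0.38 and 0.35. In RTN all 8 endothelial markers were higher in moderate hypercapnia than in room air, at a median of 0.38, and their summed CPM ran from 328 to 527 (median 448) in room air and from 368 to 900 (median 440) in moderate. Over deviations from the group means, described below, ADORA2B had r = 0.08 with the endothelial list in RTN. Of 9 astrocyte markers there, 5 were lower and 4 higher, at a median of -0.07. The part of either list in the ADORA2B difference was not tested. In the other 3 regions ADORA2B had estimates of -0.16 to 0.12 over room air.

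The remaining genes gave wide or centred intervals. P2RX4 was measured most tightly, with standard errors of 0.07 to 0.13 and all 12 intervals inside -0.32 to 0.42. P2RX7 lay below room air in 6 of 8 comparisons, by up to -0.36 in NTS under moderate hypercapnia (95% interval -0.81 to 0.10). P2RY1 had 5.44 ± 1.80 CPM in NTS in room air, 7.40 ± 1.36 in mild and 7.50 ± 2.92 in moderate hypercapnia, a log2 fold change of 0.44 and 0.46 with intervals that include 0 (edgeR adjusted p = 0.85 and 0.40). ADORA2A in mPFC had 0.569 ± 0.302 CPM with room air and 1.25 ± 0.942 with moderate hypercapnia, with an interval from -0.14 to 2.48.

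The 2 enzymes were lower than in room air in 7 of 8 comparisons each, with none called. ENTPD1 in mPFC averaged 3.80 ± 0.649 CPM with room air and 3.06 ± 0.429 with mild hypercapnia, with an estimate of -0.32 (95% interval -0.65 to 0.00, edgeR adjusted p = 1.00). NT5E in VRC averaged 50.9 ± 9.29 CPM in room air, 41.4 ± 11.6 in mild and 37.8 ± 13.7 in moderate hypercapnia, with an estimate of -0.43 for moderate (95% interval -0.88 to 0.02, edgeR adjusted p = 0.87). In RTN it averaged 48.7 ± 3.31, 39.1 ± 7.64 and 46.1 ± 15.01 CPM, with an SD more than 4 times as large in moderate hypercapnia as in room air. These counts of direction share their room air libraries and add no test of their own.

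**Figure D4:**
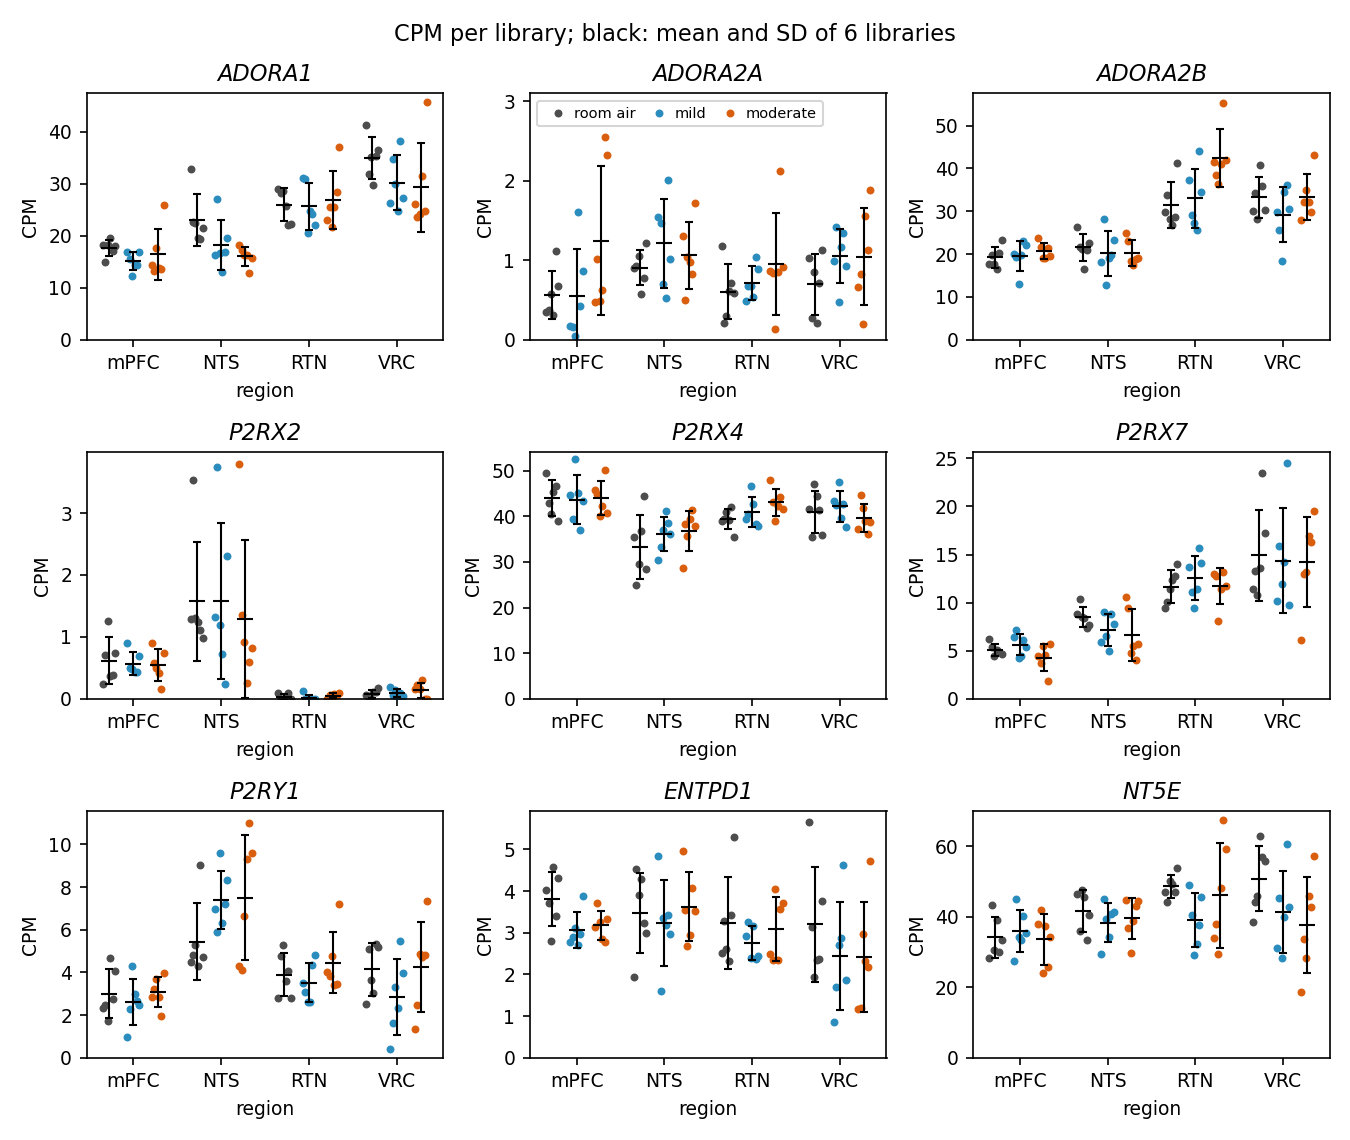
CPM of the 9 genes in each of 72 libraries, by region and condition, with the mean and SD of 6 libraries in black. The levels of ADORA1, ADORA2B, P2RX2 and P2RX7 differ between regions, and hypercapnia and room air overlap within regions apart from ADORA1 in NTS, where moderate (12.8 to 18.2 CPM) lies below room air (19.4 to 32.8 CPM).

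A test of whether the response to CO2 differs between the 4 regions, over all 72 libraries, called none of the 9 genes for mild or for moderate hypercapnia, with 0% of all genes called in both. With the replicate number as a block it also called 0 of the 9. Unadjusted p-values under 0.05 were found for 2.4% and 3.83% of all genes and for 0 of the 9. The lowest were those of ADORA1 and ADORA2B under moderate hypercapnia, each with an edgeR adjusted p of 1. The differences seen for ADORA1 in NTS and ADORA2B in RTN are therefore not shown to be particular to those regions.

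The wider pathway was read from 53 listed genes in 5 lists, of which 50 had a row and 37 to 40 were tested in a condition comparison. None was called in any of the 12 by edgeR, and 2 to 13 per comparison had an unadjusted p under 0.05. The highest number, 13 of 40, was in moderate against mild in VRC, where 15.5% of all genes had such a p. There AMPD2, which deaminates AMP, had 74.9 ± 8.00 CPM in mild and 104 ± 21.2 in moderate hypercapnia (log2 fold change 0.44, adjusted p = 0.13). ADORA3, the A3 receptor, had 55.8 ± 15.3 and 32.2 ± 10.3 CPM there (-0.82, adjusted p = 0.14) and 36.8 ± 11.1 in room air. DESeq2 called 4 genes of the lists in that comparison, where it called 280 over all genes.

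Elsewhere the 2 genes of lowest p per comparison recurred. In RTN, GJB6, the connexin 30 gene of astrocyte channels that can pass ATP, had 132 ± 35.0 CPM in room air, 121 ± 35.6 in mild and 206 ± 71.7 in moderate hypercapnia (0.73 over mild, edgeR adjusted p = 0.22). P2RY12, the ADP receptor of microglia, had 24.002 ± 4.66 CPM with room air and 33.7 ± 7.12 with mild hypercapnia in RTN (0.51, adjusted p = 0.70). P2RY2 in NTS had 3.58 ± 1.71 CPM with room air and 1.90 ± 0.341 with moderate hypercapnia (-0.91, adjusted p = 0.33), and ENPP2, autotaxin, had 445 ± 147 and 298 ± 63.7 CPM (-0.59, adjusted p = 0.33). SLC29A3, a nucleoside transporter of intracellular membranes, was higher in moderate hypercapnia than in room air in RTN (0.31) and mPFC (0.25), with adjusted p of 0.56 and 1.00. ADK, the kinase that clears adenosine, had 69.3 ± 6.56 CPM with room air and 79.8 ± 3.53 with mild hypercapnia in mPFC without overlap (0.20, adjusted p = 1.00), where 0.175% of all genes showed no overlap. APRT, AMPD3, DPP4 and SLC28A2 completed the genes of lowest p.

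Between regions in room air the wider pathway differed often, as did genes at large. Of 41 tested genes, 16 were called in NTS against mPFC, 16 in RTN and 21 in VRC, where 48.3%, 54.8% and 60.3% of all genes were, and 10 were called in all 3 comparisons. The share of all genes called in all 3 was not computed, so that count is not read as a result particular to these lists. PANX1, the pannexin channel that releases ATP, had 117 ± 13.1 CPM in mPFC against 27.7 ± 5.52 in NTS, 18.6 ± 2.62 in RTN and 15.004 ± 2.01 in VRC, the lowest adjusted p of the lists. HPRT1, NT5C1A and GJB2 were also lower in all 3 brainstem regions. ENPP2 was higher in all 3, from 185 ± 59.7 CPM in mPFC to 934 ± 112 in VRC. ENTPD2, an enzyme that turns ATP into ADP, had 33.4 ± 7.14 CPM in mPFC, 118 ± 31.8 in NTS, 117 ± 24.8 in RTN and 77.5 ± 16.9 in VRC. SLC29A4, P2RY2, LRRC8A and ALPL were the other genes higher in all 3.

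Libraries of 1 group differed among themselves, and some genes varied together. Over the deviations of log2 CPM from the group mean in 72 libraries, the 28 pairs of the 8 genes other than P2RX2 had r from -0.32 (ADORA2B with P2RX4) to 0.55 (P2RX7 with NT5E), with 20 of 28 above 0 and a median of 0.18. P2RY1 with ENTPD1 had 0.47 and ADORA1 with P2RX7 0.45, while the neighbouring genes P2RX4 and P2RX7 had -0.30. These values describe libraries that share animals, dissection, depth and scaling, and carry no p.

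The marker list and genes closest to each gene were taken by the highest r over the same deviations, among 14 lists and 13117 genes. ADORA1 lay closest to the myelin list, with r = 0.73 (rho 0.77, n = 72) and 0.65 without the 2 libraries farthest from the median score. Within regions r was 0.83 in mPFC, 0.88 in NTS, 0.65 in RTN and 0.74 in VRC (n = 18 each), so the relation held in each region. Its closest gene was SOX8, a transcription factor of oligodendrocytes, at 0.78, followed by PRR5L at 0.74 and JAM3 at 0.74. P2RX7 also lay closest to the myelin list, at 0.56 (rho 0.61), with 0.77 in NTS and 0.34 in RTN, the latter at -0.04 without its 2 farthest libraries. Its closest genes were EFCAB14 at 0.81, FNBP1 at 0.79 and GNAI1 at 0.78.

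ADORA2B lay closest to the astrocyte list, at 0.40 (rho 0.42). That relation was uneven, at 0.79 in VRC, 0.44 in RTN, 0.19 in mPFC and 0.14 in NTS. Over all libraries it was 0.31 without the 2 farthest from the median score. In NTS ADORA2B had r = 0.69 with the myelin list, so its closest list was not the same in each region. Its closest genes were LIX1L at 0.64, SLC7A10, an amino acid transporter of astrocytes, at 0.63 and MAPK4 at 0.62. NT5E lay closest to the astrocyte list too, at 0.45, and to the gene GPSM2 at 0.77, ahead of ARHGAP12 and NR3C1 at 0.75 each. Within regions its r with the astrocyte list was 0.50 in mPFC, 0.26 in NTS, 0.51 in RTN and 0.49 in VRC. With the myelin list it was -0.13, 0.40, 0.85 and 0.53 in the same order, so the closest list was not the same in each region. P2RX4 lay closest to the leukocyte list at 0.48 and to GMPR2 at 0.65. Its r with the leukocyte list was 0.49 in mPFC, 0.63 in NTS, 0.50 in RTN and 0.34 in VRC, the last at -0.02 without its 2 farthest libraries. Other lists were closer in mPFC (microglia, 0.58), RTN (fibroblast and meningeal, 0.54) and VRC (endothelial, 0.41). ENTPD1, known from microglia and vessels, lay closest to the microglia list but only at 0.26, with 0.73 in VRC and -0.53 in NTS. P2RY1 lay closest to OSBPL11 and WDR19, at 0.70 each, and ADORA2A to OTUD4 at 0.58. P2RX2 had too few counts outside NTS for such values to be read.

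**Figure D5:**
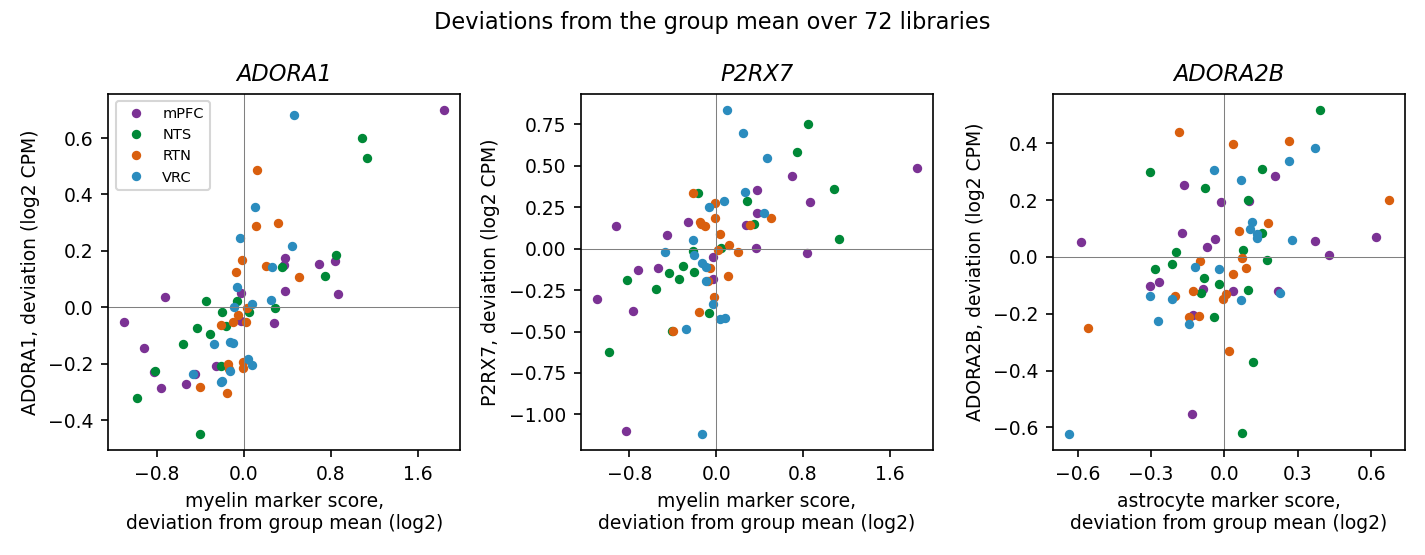
Deviation of log2 CPM from the group mean for ADORA1, P2RX7 and ADORA2B (vertical axes) against the deviation of the mean log2 CPM of the myelin or astrocyte markers (horizontal axes), with 1 point per library, 72 in all, coloured by region. ADORA1 is higher where the myelin score is higher (r = 0.73), P2RX7 less closely (0.56), and ADORA2B with the astrocyte score most weakly (0.40).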

How the data were processed

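RNA was sequenced from 4 brain regions under 3 conditions, with 6 libraries per group and 72 in all. The deposited table holds raw whole-number counts per gene, a deposited RPKM value per gene and library, and a gene model length in bases (unit other, per the file headers). FastQC, Trimmomatic, STAR, featureCounts and edgeR are named in the submitters' processing notes. Of versions, genome build, annotation and strand setting, none was found: not given in the sources used here. Libraries were made from total RNA with a SMARTer low-input kit, per the labels' protocols. The deposited RPKM used a library size of 1.005 to 1.007 times the summed counts. Coordinates are not printed because the span of 89.7% of genes is shorter than the stated length.

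Counts were fitted with edgeR 4.0.16 in R 4.3.3: genes kept by filterByExpr (minimum count 10), TMM scaling, the quasi-likelihood F-test, and Benjamini-Hochberg adjustment at 0.05 over all genes tested. Condition comparisons used the 18 libraries of a region, region comparisons the 24 libraries of a condition, and the interaction all 72. A gene that failed the filter was tested by an exact permutation over 924 arrangements. Alternatives were DESeq2 1.42.0, limma 3.58.1 with quality weights, RLE factors, no filter, a replicate block, only the groups compared, and leaving out each library. A myelin score covariate and the newer edgeR fit were chosen after seeing the data. The scripts were tested on simulated data. Log2 CPM for deviations used a prior count of 2. Depth was 12.8 to 31.9 M counts per library. Within groups, libraries differed by far more than sampling noise (chi-square per degree of freedom 14.7 to 207).

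The members and gene lists were chosen with earlier results of these data known. All 10 members are named. Full statistics go to members with an unadjusted p under 0.05 in a condition comparison or called between regions in room air. The exception is P2RX2, whose p-values between regions are not given. Of the other pathway genes, those called, or else the 2 of lowest p per condition comparison, are named. For likeness the 3 genes and the list of highest r were taken. The series description gives 18 animals for 72 libraries, so regions share animals, but nothing in the labels says that a replicate number marks an animal; p-values measure the spread between libraries. No sequences are printed.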

Additional observations from a re-analysis of the deposited data

Results flagged for a closer look

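Within the 108 groups of 6 libraries (9 genes in 12 groups), Dixon's test at its 95% critical value marked 13 single libraries. Its nominal rate would mark about 5.4, but that rate holds for normal, independent values. CPM from low counts and libraries that share animals need not be such values, so 13 is not read as an excess. ADORA1 had 26.0 CPM in moderate mPFC library 6 against 13.2 to 17.7 in the other 5. It had 32.8 CPM in room air NTS library 1 against 19.4 to 22.7, and 45.7 CPM in moderate VRC library 6 against 23.7 to 31.4. ADORA2B had 13.1 CPM in mild mPFC library 3 against 19.3 to 23.0, and 55.4 CPM in moderate RTN library 5 against 36.4 to 42.0. P2RX2 had 3.53 CPM in room air NTS library 2 against 0.979 to 1.305, and 3.79 CPM in moderate NTS library 1 against 0.259 to 1.35. In mild RTN library 1 it had 0.121 CPM, which is 2 counts, where the other 5 had 0. P2RX7 had 8.14 CPM in moderate RTN library 3 against 11.5 to 13.1. P2RY1 had 9.05 CPM in room air NTS library 5 against 4.32 to 5.28, and 7.22 CPM in moderate RTN library 6 against 3.43 to 4.77. ENTPD1 had 3.88 CPM in mild mPFC library 6 against 2.70 to 3.12, and 5.29 CPM in room air RTN library 6 against 2.31 to 3.42.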

How the results depend on the processing

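In the condition comparisons 0 of the 9 genes was called under all 312 alternatives, and in the interaction tests under all 8. Between regions 213 of 216 alternatives left the count of genes called within 1.5 times; the other 3, leaving out RTN library 5 or 6 or VRC library 1 of room air, took RTN against VRC from 1 to 0. Leaving out single libraries gave 4 to 6 genes called in NTS against mPFC, 5 in RTN against mPFC, 5 to 6 in VRC against mPFC, 2 to 4 in RTN against NTS, 4 to 6 in VRC against NTS and 0 to 1 in RTN against VRC. Estimates of single genes were followed only where called between regions or with an unadjusted p under 0.05 in a condition comparison. None of those changed direction, and the direction of the other estimates was not checked. P2RX4 in RTN against NTS under moderate hypercapnia was called in the reported fit and by DESeq2, with an adjusted p of 0.0579 under RLE factors, 0.0793 without a filter and 0.0552 with the replicate block; the cause was not tested. The replicate block gave 4 genes in RTN against NTS in room air in place of 3, 4 in NTS against mPFC in mild in place of 3, and 5 in VRC against NTS in moderate in place of 4. All these counts between regions, with libraries left out too, include P2RX2, whose calls are not read as results. The block also moved counts of other pathway genes. For RTN against VRC the block gave 11 other pathway genes in room air in place of 5, and 6 in mild in place of 1. Replicate numbers are shared by the labels of all groups: same-numbered libraries of different regions in 1 condition had median correlations of their deviations of 0.221 to 0.244, with 27 to 33 of 36 pairs over 0.1, and 70 of 72 libraries correlated best with those of the same number, while between conditions the median was 0.0206. The regions share animals, and these values are a hint from the data that a number marks an animal within a condition. Since the labels do not say so and some pairs lay below 0.1, the fit without the block was kept. Other pathway genes were called 4 times by DESeq2 and 2 times without moderate VRC library 6, in moderate against mild in VRC, where edgeR called 0. Over all genes those 2 settings called 280 and 252. Counts of P2RX2 and ADORA2A limit their precision. Counts over all genes in the condition comparisons moved under 51 of 312 alternatives, to at most 280 genes.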
